A study of Saccharomyces cerevisiae with 83 samples.

Results

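The mRNAs of the large ribosomal subunit proteins of budding yeast (Saccharomyces cerevisiae, W303 background) were followed through RNA sequencing and selective ribosome profiling of strains with tagged nonsense-mediated decay factors. A transcript was a member when its row in the deposited tables was an mRNA row and its locus carries an SGD standard name made of RPL and a digit, so the acidic stalk proteins (RPP names) are outside. This gave 76 mRNAs of the 6587 mRNA rows: 66 form 33 pairs of gene copies, and 10 are single-copy genes (RPL3, RPL5, RPL10, RPL25, RPL28, RPL29, RPL30, RPL32, RPL38 and RPL39). The members lie on 14 chromosomes of the R64 assembly, with 10 on chromosome IV and 9 each on VII and XII. A separate pre-mRNA row, which keeps the intron, stands beside the mRNA row for 56 of them. The counting split reads that match both copies of a pair, or both the mRNA and the pre-mRNA of a gene, by an estimate, so the values of near-identical copies are less certain than those of single-copy genes.

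Large subunit proteins surround the ribosomal RNA that forms the peptidyl transferase centre, line the tunnel through which the nascent chain leaves, and hold the platform on which elongation and termination factors bind. In yeast their genes are among the most strongly transcribed, are regulated together with those of the small subunit, and often contain introns, which most other yeast genes lack. Nonsense-mediated decay depends on the helicase Upf1 and its partners Upf2 (encoded by NMD2) and Upf3, and removes transcripts on which translation ends too early, among them unspliced pre-mRNAs that reach the cytoplasm.

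The series sequenced RNA, total 80S ribosome footprints and the footprints of 80S ribosomes that came down with a FLAG-tagged Upf protein (IP 80S), with 30 RNA, 30 total and 23 IP libraries. In the C experiment (C-terminal tag, cycloheximide in every sample, 3 replicates a group) the upf1::HIS3 strain carried UPF1-FLAG (Upf1-FLAG) or the allele DE572AA-FLAG, which has a changed ATPase site, each on the plasmid pRS425. The same UPF1-FLAG plasmid in an nmd2::HIS3 upf1::URA3 strain is labelled Upf1-FLAG with a UPF2 deletion (Upf1-FLAG_upf2del), and the reference was wild type with empty pRS425 (WT-C). In the N experiment (N-terminal tag, 2 replicates a group, with and without cycloheximide) pG1-FLAG-UPF1 was in upf1::HIS3 (FLAG-Upf1), YEplac112-FLAG-UPF2 in nmd2::HIS3 (FLAG-Upf2) and YEplac195-TPI-FLAG-UPF3 in upf3::HIS3 (FLAG-Upf3), beside wild type with empty YEplac112 (WT-N). A further N strain, with cycloheximide only, had pG1-FLAG-UPF1 together with untagged UPF2 and UPF3 plasmids in upf1::HIS3 (FLAG-Upf1+Upf2+Upf3). Every tagged protein thus came from a plasmid, and an IP from untagged cells was not analysed here. Cycloheximide, an elongation inhibitor that binds the large subunit, was used at 100 µg/ml (CHX), and samples without it are written noCHX. The 27-32 nt class was the standard footprint with CHX and the 20-32 nt class without it, and 37-43 nt footprints were tabled for a few groups.

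The RNA libraries held 49079300 to 164141000 counts, and the members' median was at least 47263 counts in each. Footprint libraries were far smaller in these standard classes: 213689 to 3020880 counts for total and 275418 to 1419200 for IP in the C experiment, and 66971 to 1470360 in the N experiment. The WT-C total libraries held 213689 to 714997 counts, below every total library of the tagged C strains (1294980 to 3020880). UPF1 RNA stood at 10472 to 32142 CPM (expected counts scaled to the same library total) in the 5 strains with a UPF1 plasmid, against 299 to 413 CPM in the others. NMD2 RNA stood at 1164 to 1194 CPM in the strain labelled as lacking UPF2, against 185 to 209 CPM in WT-C, which goes against a deletion of the whole gene. That strain and FLAG-Upf2 also had MF(ALPHA)1 at 497 to 766 CPM, against at most 0.6 CPM in the other strains, and MFA2 at most 0.5 CPM, against 73.6 CPM or more, so their mating type expression differs from that of the wild types they are set against. The part of mating type in the results was not tested. The labels name transformants but not separate cultures, so p-values measure the spread between these samples.

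Per length of transcript, the highest members in WT-C RNA were RPL8B at 5022 ± 41 FPKM (SD, n = 3), RPL32 at 4924 ± 196, RPL10 at 4560 ± 45, RPL40A at 4543 ± 159 and RPL28 at 4128 ± 116. RPL8B and RPL32 overlapped in their replicates, as did RPL10 and RPL40A. The lowest were RPL18B at 538 ± 17, RPL41B at 536 ± 21, RPL7B at 465 ± 7.8, RPL22B at 172 ± 34 and RPL15B at 58.1 ± 1.2 FPKM. Each of these 5 is the lower copy of its pair, and RPL41 encodes the smallest ribosomal protein. The median member stood at 1845 FPKM, against 1872 FPKM for the 56 small subunit mRNAs (RPS).

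Copies of a pair were very unequal for some proteins and equal for others. RPL15A held 98.6% of the RPL15 FPKM in WT-C RNA, RPL22A 91.2%, RPL8B 89.5% and RPL7A 80.7%. RPL20, RPL1, RPL34, RPL6 and RPL26 were within 1.4 points of an even division. Added over copies, the 43 proteins spanned 1018 FPKM (RPL30) to 6815 FPKM (RPL40), 6.69-fold, whereas single members spanned 58.1 to 5022 FPKM. In WT-C total footprints the highest were RPL11B at 8848 ± 272, RPL1A at 8751 ± 551, RPL28 at 8146 ± 1325, RPL32 at 6998 ± 303 and RPL8B at 6760 ± 518 FPKM, all overlapping a neighbour in that order except RPL28 towards RPL32. The lowest were RPL41B, RPL7B, RPL36A, RPL41A and RPL15B, from 263 ± 128 FPKM for RPL41B to 33.8 ± 5.8 FPKM for RPL15B. Footprint FPKM divides by the whole transcript, so it understates members with a very short reading frame such as RPL41A and RPL41B.

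The share of each library held by the members differed between IP, total and RNA libraries. In the C experiment they made up 5.49 ± 0.59% of IP counts and 11.8 ± 0.76% of total counts in Upf1-FLAG, 6.25 ± 0.30% and 11.3 ± 0.48% in DE572AA-FLAG, and 5.39 ± 0.63% and 11.2 ± 0.51% in Upf1-FLAG_upf2del. WT-C total held 13.9 ± 0.81%. In RNA, Upf1-FLAG had a share of 6.84 ± 0.37%, DE572AA-FLAG one of 6.30 ± 0.18% and Upf1-FLAG_upf2del one of 6.51 ± 0.17%, against 7.85 ± 0.18% in WT-C (SD, n = 3 each). No tagged library reached the lowest WT-C library in RNA or in total. In bulk samples fewer cells with a transcript and less of it per cell cannot be told apart.

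**Figure D1:**
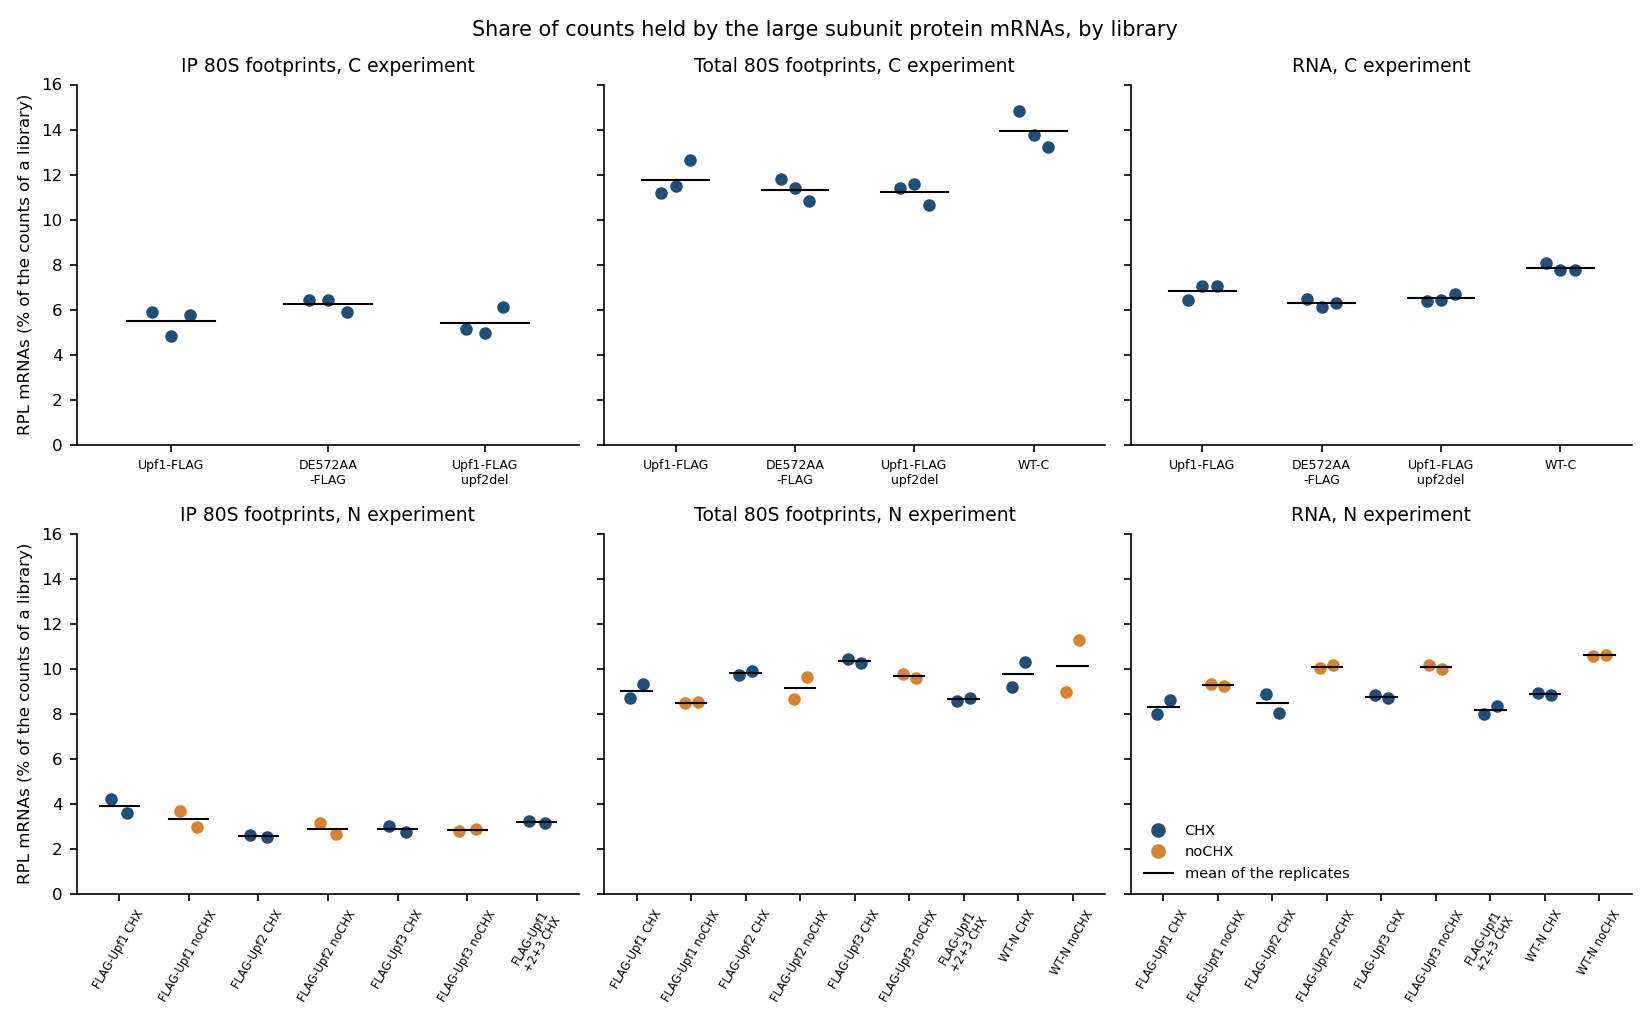
Share of each library's counts held by the 76 RPL mRNAs (%), by strain, for IP 80S footprints, total 80S footprints and RNA of the C experiment (top) and N experiment (bottom). Points are libraries, blue with CHX and orange without, and lines are means. IP libraries of the N experiment sit between 2.5 and 4.2%, below every total library.

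In RNA, large subunit protein mRNAs were lower in all 3 tagged C strains than in WT-C, by a modest amount that ran through the family. Of the 76 members, 26 were called lower in Upf1-FLAG (edgeR quasi-likelihood test, Benjamini-Hochberg adjusted p under 0.05), where 12.8% of all transcripts tested were called lower. In DE572AA-FLAG 64 were lower (all transcripts 27.6%), and in Upf1-FLAG_upf2del 60 were lower (all transcripts 27.9%). None was called higher. The median log2 fold change was −0.19, −0.45 and −0.36 in that order, while that of all transcripts was between −0.01 and 0.00; from plain CPM the members' medians were −0.21, −0.34 and −0.29. The 3 comparisons share the WT-C libraries, and 25 members were called lower in each of them. Leaving out a WT-C library (replicate 1, 2 or 3) left 14, 17 and 14 calls in Upf1-FLAG.

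RPL25, whose protein sits at the tunnel exit where the signal recognition particle docks, had 909, 1033 and 959 CPM in Upf1-FLAG, 1053, 929 and 1031 in DE572AA-FLAG and 1002, 1055 and 1113 in Upf1-FLAG_upf2del, against 1412, 1345 and 1402 in WT-C. Every tagged library was below every WT-C library, and the log2 fold changes were −0.50 ± 0.07 (SE), −0.58 ± 0.07 and −0.46 ± 0.07, each with an edgeR adjusted p of at most 0.00016. RPL20B was also low in every tagged library, at 995, 1047 and 971 CPM in Upf1-FLAG and 1105, 1055 and 1025 in Upf1-FLAG_upf2del, against 1469, 1385 and 1448 in WT-C. It fell by 0.49 ± 0.05 on the log2 scale in Upf1-FLAG, by 0.65 ± 0.05 in DE572AA-FLAG and by 0.50 ± 0.05 in Upf1-FLAG_upf2del. RPL9A, of the factor-binding side of the subunit, and both copies of RPL40, which is made as a fusion with ubiquitin, fell in all 3 strains too.

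RPL35A, another tunnel-exit protein, had the largest fitted change among the members called lower in Upf1-FLAG, with replicates far apart. Its values were 364, 276 and 179 CPM in Upf1-FLAG, 467, 200.2 and 425 in DE572AA-FLAG and 301, 364 and 410 in Upf1-FLAG_upf2del, against 624, 537 and 571 in WT-C. The groups did not overlap, but only Upf1-FLAG passed the test (log2 −1.07 ± 0.32, edgeR adjusted p = 0.032), and leaving out Upf1-FLAG replicate 2 or 3 or any WT-C library ended that call. RPL39, a small protein in the tunnel wall, had 344, 484 and 305 CPM in DE572AA-FLAG against 563, 555 and 550 in WT-C, and fell by 0.67 ± 0.16 there and by 0.54 ± 0.16 in Upf1-FLAG_upf2del.

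By role, 4, 6 and 6 of 6 members of the stalk base and factor-binding region were lower in Upf1-FLAG, DE572AA-FLAG and Upf1-FLAG_upf2del, as were 5, 12 and 9 of 14 of the exit tunnel and 3, 6 and 7 of 8 proteins that join the subunit late in the cytoplasm. Of the 3 members of the 5S particle 2, 3 and 3 were lower, but of the 7 members of the bridges to the small subunit only 1, 3 and 3, with log2 values up to 0.20, 0.27 and 0.21. Of the 7 members of the peptidyl transferase centre and tRNA sites, 5 were lower in DE572AA-FLAG, 6 in Upf1-FLAG_upf2del and 0 by edgeR in Upf1-FLAG, where 2 had an unadjusted p under 0.05. RPL3, which reaches into that centre, had 3299, 3699 and 3627 CPM in Upf1-FLAG, 3280, 3116 and 3328 in DE572AA-FLAG and 3175, 3326 and 3539 in Upf1-FLAG_upf2del, against 3851, 3831 and 3857 in WT-C. RPL5, which carries the 5S ribosomal RNA into the subunit with RPL11, had 2735, 2757 and 2933 CPM in Upf1-FLAG, 2424, 2610 and 2400 in DE572AA-FLAG and 2726, 2790 and 2546 in Upf1-FLAG_upf2del, against 3297, 3259 and 3233 in WT-C. Both fell in DE572AA-FLAG (log2 −0.36 ± 0.07 and −0.51 ± 0.07) and in Upf1-FLAG_upf2del (−0.27 ± 0.07 and −0.35 ± 0.07). RPL28, RPL30, RPL41A, RPL41B and RPL22B mRNA passed the test in none of the 3 strains.

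Set directly against Upf1-FLAG, 41 members were lower in DE572AA-FLAG (all transcripts 11.2%) and 13 in Upf1-FLAG_upf2del (all transcripts 8.76%), with median log2 values of −0.25 and −0.17 and plain CPM medians of −0.11 and −0.07. The compared libraries did not overlap for only 19 of those 41 members and 8 of those 13. The matching share of all transcripts is not given. RPL13A had 591, 599 and 568 CPM in DE572AA-FLAG and 613, 653 and 572 in Upf1-FLAG_upf2del, against 675, 686 and 754 in Upf1-FLAG. Both groups were below every Upf1-FLAG library (log2 −0.41 ± 0.08, edgeR adjusted p = 0.0022, and −0.30 ± 0.08, adjusted p = 0.015). The counts of members called moved with the fit and with single libraries. In fits of the compared groups only they were 14 and 0, and the Upf1-FLAG_upf2del count was 27 by DESeq2 and 8 with TMM without ribosomal protein mRNAs. The DE572AA-FLAG count was 19 to 27 without DE572AA-FLAG replicate 1 or 3 or Upf1-FLAG replicate 3. The Upf1-FLAG_upf2del count was 46 without Upf1-FLAG replicate 1 and 2 to 8 without any other library of those 2 groups.

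Other groups of genes moved as well. Of the 56 RPS mRNAs, 21, 49 and 43 were lower in Upf1-FLAG, DE572AA-FLAG and Upf1-FLAG_upf2del, with medians of −0.18, −0.41 and −0.36 close to those of the members. Of 36 factors of 60S assembly, 20, 34 and 34 were lower, and of 34 mitochondrial large subunit proteins 8, 15 and 24. Of 16 glycolytic enzymes, another abundant class, 1, 12 and 6 were lower.

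**Figure D2:**
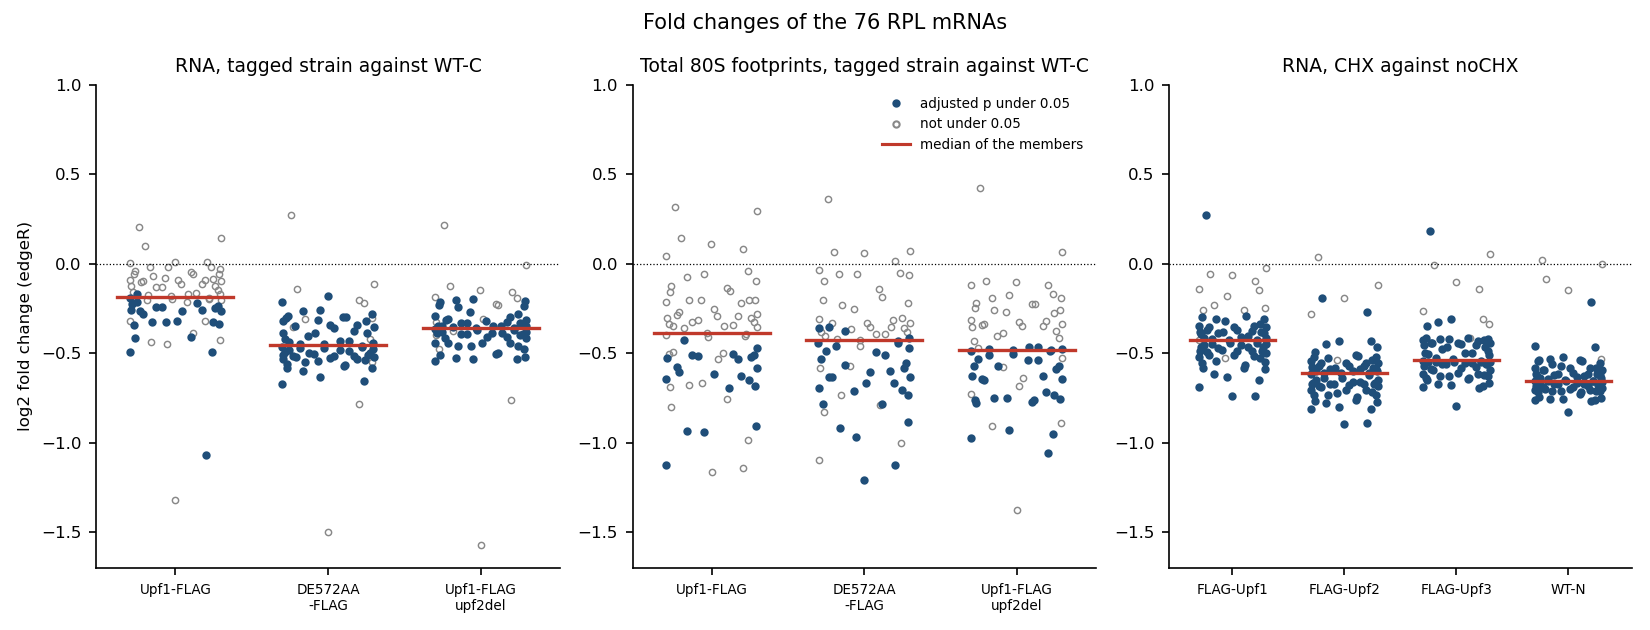
Log2 fold changes (edgeR) of the 76 RPL mRNAs in RNA of the tagged C strains against WT-C, in total 80S footprints of the same strains, and in RNA with CHX against noCHX in the N strains. Filled blue points have an adjusted p under 0.05, open grey points do not, and red lines are medians. Most points lie below 0 in every column, with the median at −0.65 for CHX against noCHX in WT-N.

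In RNA of the N strains without cycloheximide the family was lower in FLAG-Upf1, with 44 of 76 members called lower (all transcripts 20%) and a median log2 value of −0.29. FLAG-Upf2 had 3 (RPL34A, RPL6A and RPL26A, all transcripts 4.97%) and FLAG-Upf3 had 1 (RPL8A, all transcripts 1.66%). RPL34B, the member with the second largest fall in FLAG-Upf1 after RPL36B, had 783 and 756 CPM there, against 996 and 1029 CPM in WT-N, and the groups did not overlap (log2 −0.50 ± 0.09, edgeR adjusted p = 0.0012). Without FLAG-Upf1 replicate 1, FLAG-Upf1 replicate 2 or WT-N replicate 1 the count was 19, 23 and 23. These strains share the WT-N libraries, and differences between tagged strains were not tested.

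With cycloheximide, 2 members were lower in FLAG-Upf1 (RPL9B and RPL15B, all transcripts 5.75%) and 7 in FLAG-Upf1+Upf2+Upf3 (RPL34B, RPL7B, RPL8A, RPL18B, RPL33B, RPL37A and RPL6A, all transcripts 8.95%). By edgeR 0 members passed in FLAG-Upf2 (all transcripts 0.609%) and 0 in FLAG-Upf3 (all transcripts 2.52%), where 1 and 8 members had an unadjusted p under 0.05 and DESeq2 called 0 and 3. Without FLAG-Upf1 replicate 2 the count in FLAG-Upf1 was 17, and it was 0 or 1 without WT-N replicate 1, WT-N replicate 2 or FLAG-Upf1 replicate 1. Without either WT-N library or FLAG-Upf1+Upf2+Upf3 replicate 1, the count of 7 fell to 0 or 1. It was 36 by DESeq2, 1 in a fit of the compared groups only and 0 with pairs summed.

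Cycloheximide itself was set against its absence within each N strain. The fitted fold changes were below 0 for nearly the whole family: 71 of 76 members were called lower in WT-N (all transcripts 29.5%), 62 in FLAG-Upf1 (all transcripts 22.6%), 71 in FLAG-Upf2 (all transcripts 27.8%) and 67 in FLAG-Upf3 (all transcripts 27.8%), and 59 members in all 4. The fitted medians were −0.65, −0.42, −0.61 and −0.54 in that order. From plain CPM they were smaller, at −0.27, −0.16, −0.25 and −0.23, and 71, 66, 70 and 70 members had a lower mean CPM with CHX on that scale. The fitted values lay −0.38, −0.26, −0.36 and −0.31 from the plain CPM values in the median, through the library scaling. The count called in FLAG-Upf1 in either direction was 40 without its CHX replicate 1 and 37 in a fit of the compared groups only. The fits with a replicate block kept these counts within 1.5 times.

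RPL21A fell the most in WT-N, with 1008 and 998 CPM with CHX against 1325 and 1422 CPM without (log2 −0.83 ± 0.08, edgeR adjusted p = 3.3e-06). The 2 pairs of values did not overlap. RPL15B, the rare copy of its pair, went the other way in 2 strains: it had 42.7 and 39.3 CPM with CHX and 29.8 and 26.8 CPM without in FLAG-Upf1 (log2 0.27 ± 0.06, edgeR adjusted p = 0.0023) and 50.8 and 49.6 against 35.1 and 36.4 CPM in FLAG-Upf3 (0.18 ± 0.06, adjusted p = 0.018). These are the only members called higher with CHX in those strains, where 25.8% and 27.3% of all transcripts were. RPL15B shares reads with RPL15A, and the summed RPL15 pair was lower with CHX in both strains (−0.38 and −0.55). RPL8A, also above its noCHX values in CPM in all 4 strains (1283 and 1224 against 1078 and 1063 CPM in WT-N), had fitted values of −0.19 to 0.05 with no call. Of the 56 RPS mRNAs, 53 or 54 were lower with CHX in each strain, as were 30 to 35 of the 36 assembly factors and 13 to 15 of the 16 glycolytic enzymes.

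The intron-containing pre-mRNA of RPL28, long used as a substrate of nonsense-mediated decay under its older name CYH2, was higher in every tagged C strain. It had 391, 482 and 461 CPM in Upf1-FLAG, 921, 699 and 783 in DE572AA-FLAG and 717, 760 and 973 in Upf1-FLAG_upf2del, against 166, 165 and 152 in WT-C. No tagged library came near a WT-C library. The log2 fold changes were 1.49 ± 0.13, 2.20 ± 0.13 and 2.27 ± 0.13, and DE572AA-FLAG and Upf1-FLAG_upf2del were also above Upf1-FLAG (0.71 ± 0.13, edgeR adjusted p = 0.0021, and 0.78 ± 0.13, adjusted p = 0.0011). The spliced RPL28 mRNA stood at 1341, 1700 and 1554 CPM in Upf1-FLAG, 1568, 1362 and 1618 in DE572AA-FLAG and 1448, 1421 and 1729 in Upf1-FLAG_upf2del, against 1666, 1590 and 1586 in WT-C, and overlapped with WT-C in all 3. The pre-mRNA thus made up 22.5 ± 0.39%, 34.5 ± 2.3% and 34.7 ± 1.5% of the RPL28 counts in the tagged strains in that order, against 9.06 ± 0.31% in WT-C. RPL28 lies at 310967 to 311927 on chromosome VII (R64, RefSeq gene span).

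In the N experiment RPL28 pre-mRNA was at 421 and 419 CPM in FLAG-Upf1, 324 and 300 in FLAG-Upf2 and 233 and 230 in FLAG-Upf3, against 209 and 192 CPM in WT-N without cycloheximide. FLAG-Upf1 (log2 0.96 ± 0.08) and FLAG-Upf2 (0.66 ± 0.08) passed the test, and FLAG-Upf3 (0.19 ± 0.08, edgeR adjusted p = 0.25) did not. With cycloheximide FLAG-Upf1+Upf2+Upf3 had 821 and 739 CPM and FLAG-Upf1 434 and 481, against 324 and 313 in WT-N (1.21 ± 0.08 and 0.54 ± 0.08, both called).

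Few other pre-mRNA rows of the family moved. In Upf1-FLAG 4 of 56 were higher (all transcripts 17.5%) and 2 lower, in DE572AA-FLAG 7 higher (all transcripts 26.3%) and 4 lower, and in Upf1-FLAG_upf2del 10 higher (all transcripts 26%) and 3 lower, with medians between 0.05 and 0.07. These counts were below the share of all transcripts. The rows of RPL28, RPL24B and RPL19A were higher in all 3 strains. DE572AA-FLAG had 4 pre-mRNA rows above Upf1-FLAG (all transcripts 15.3%) and 3 below it, Upf1-FLAG_upf2del had 4 above (all transcripts 14.1%) and 0 below by edgeR, with 4 below at an unadjusted p under 0.05, and RPL28, RPL7B and RPL22B were among the higher rows in both.

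RPL22B pre-mRNA, whose splicing the RPL22 protein itself is known to inhibit in this yeast, had 236, 216 and 179 CPM in Upf1-FLAG, 358, 298 and 329 in DE572AA-FLAG and 327, 299 and 331 in Upf1-FLAG_upf2del, against 226, 218 and 205 in WT-C. DE572AA-FLAG and Upf1-FLAG_upf2del were above every WT-C library (log2 0.49 ± 0.07 for both), and Upf1-FLAG overlapped with WT-C. It made up 91.2 ± 1.8%, 94.2 ± 4.0% and 94.7 ± 2.0% of the RPL22B counts in Upf1-FLAG, DE572AA-FLAG and Upf1-FLAG_upf2del, against 80.8 ± 3.8% in WT-C. The mRNA row was correspondingly low, at 25.8, 15.7 and 19.8 CPM in Upf1-FLAG, 4.86, 30.1 and 23.8 in DE572AA-FLAG and 22.0, 9.20 and 23.8 in Upf1-FLAG_upf2del, against 40.9, 52.2 and 61.2 in WT-C, with no overlap and no call (log2 −1.32 ± 0.60 to −1.57 ± 0.61). Cycloheximide moved this row most: 208 and 206 CPM with CHX against 50.2 and 51.7 CPM without in WT-N (log2 1.65 ± 0.06), and FLAG-Upf1 (0.91 ± 0.06), FLAG-Upf2 (1.21 ± 0.06) and FLAG-Upf3 (1.49 ± 0.06) also had called rises. Its share of the RPL22B counts was 77.8 to 83.4% with CHX in these 4 strains, against 52.5 to 58.9% without.

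Total 80S footprints on the members were lower in the tagged C strains than in WT-C, where few transcripts in all were called. Every WT-C total library was smaller than every tagged one, and the part of depth in these comparisons was not tested. Of 76 members, 22 were lower in Upf1-FLAG (all transcripts 1.79%), 34 in DE572AA-FLAG (all transcripts 3.87%) and 35 in Upf1-FLAG_upf2del (all transcripts 3.32%), and 18 in each of the 3, which share the WT-C libraries. None was called higher, and the medians were −0.39, −0.43 and −0.48, or −0.24, −0.26 and −0.33 from plain CPM. Of the 56 RPS mRNAs 15, 28 and 26 were lower, whereas at most 1 of the 36 assembly factors was lower. Of the 34 mitochondrial large subunit mRNAs 0 passed by edgeR in any of the 3 strains, with 5, 3 and 3 at an unadjusted p under 0.05. Of the latter, 2, 0 and 2 were lower and 3, 3 and 1 higher. The count in Upf1-FLAG was 5 in a fit of the compared groups only, and 12 to 14 without any Upf1-FLAG library or without WT-C replicate 1, whose member share was the highest of the C total libraries at 14.8%. DE572AA-FLAG had 20 and 18 calls without its replicate 2 or 3, and Upf1-FLAG_upf2del had 20 without its replicate 3.

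RPL24A, a bridge protein to the small subunit that joins late, had 1048, 1461 and 1439 CPM of total footprints in Upf1-FLAG, 1178, 1302 and 1316 in DE572AA-FLAG and 1519, 1563 and 1395 in Upf1-FLAG_upf2del, against 3474, 2255 and 2011 in WT-C. All tagged libraries were below all WT-C libraries, though WT-C replicate 1 stood well above the other two (log2 −1.12 ± 0.21, −1.21 ± 0.21 and −0.95 ± 0.21, all called). RPL37A had 688, 741 and 680 CPM in Upf1-FLAG, 633, 669 and 588 in DE572AA-FLAG and 751, 721 and 596 in Upf1-FLAG_upf2del, against 1388, 1067 and 1208 in WT-C, a fall of 0.94 ± 0.13, 1.12 ± 0.13 and 0.97 ± 0.13 on the log2 scale. RPL28, the gene of the classical cycloheximide resistance allele, had 2909, 3214 and 3638 CPM in Upf1-FLAG, 3426, 3376 and 3031 in DE572AA-FLAG and 2918, 3168 and 2908 in Upf1-FLAG_upf2del, against 5419, 4238 and 4048 in WT-C. It fell in all 3 strains (log2 −0.64 ± 0.14, −0.66 ± 0.14 and −0.77 ± 0.14). Its mRNA row passed no test in RNA, and its footprints relative to RNA, tested below, passed in none of the 3 strains against WT-C.

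Against Upf1-FLAG, 0 members passed by edgeR in either direction in DE572AA-FLAG total footprints. Of all 5086 transcripts tested, 5 (0.0983%) were lower and 35 higher. At an unadjusted p under 0.05 there were 3 members, 1 lower and 2 higher, and DESeq2 called 0. In Upf1-FLAG_upf2del 1 was lower (all transcripts 0.374%), RPL35A, with 398, 427 and 448 CPM against 494, 671 and 637 in Upf1-FLAG (log2 −0.51 ± 0.13, edgeR adjusted p = 0.037). Without any 1 library except Upf1-FLAG replicate 1 that count was 0.

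In the N experiment hardly any member passed in total footprints. By edgeR 0 members differed from WT-N without CHX in any of FLAG-Upf1, FLAG-Upf2 or FLAG-Upf3 (all transcripts 0.0461%, 0.254% and 0.023%), where 18, 11 and 8 members had an unadjusted p under 0.05 and DESeq2 called 5, 0 and 0. With CHX the counts were again 0, 0 and 0 (all transcripts 0.0461%, 0.23% and 0.023%), with 15, 3 and 4 members at an unadjusted p under 0.05 and 4, 0 and 0 called by DESeq2. The 2 WT-N noCHX libraries differed, with member shares of 8.95 and 11.3%, and without replicate 2 the noCHX counts were 9, 9 and 11. FLAG-Upf1+Upf2+Upf3 had 3 lower members (all transcripts 0.968%), among them RPL26B (log2 −2.0 ± 0.42, edgeR adjusted p = 0.0093), which shares reads with RPL26A and whose summed pair gave 0.06.

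Footprints relative to RNA (translational efficiency, tested as the interaction of library kind and strain) gave few calls. In Upf1-FLAG against WT-C 1 member passed (all transcripts 0.694%), RPL20A, with log2 −0.59 ± 0.14 (edgeR adjusted p = 0.048). In DE572AA-FLAG 1 passed (all transcripts 1.95%), RPL26A, of the exit tunnel, with 0.61 ± 0.15 (adjusted p = 0.040). The 3 other comparisons, Upf1-FLAG_upf2del against WT-C (all transcripts 2.4%) and DE572AA-FLAG and Upf1-FLAG_upf2del against Upf1-FLAG (all transcripts 0.106% and 0.166%), had 0 calls by edgeR, with 13, 5 and 4 members at an unadjusted p under 0.05 and 7, 0 and 1 called by DESeq2. The 2 calls ended without most single libraries of their groups, and neither held with the copies of the pair summed (−0.33 and 0.02).

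In the C experiment, large subunit protein mRNAs made up a smaller part of IP 80S footprints than of total 80S footprints of the same strain. In Upf1-FLAG 63 of 76 members were lower in IP (all transcripts 22.9%) and 3 higher (all transcripts 21.9%), in DE572AA-FLAG 55 lower (all transcripts 20%) and 3 higher (all transcripts 17%), and in Upf1-FLAG_upf2del 60 lower (all transcripts 22.9%) and 3 higher (all transcripts 22%). The medians were −1.28, −1.03 and −1.24 on the log2 scale, against −0.01 to 0.00 for all transcripts, and 53 members were lower in all 3 strains. IP recovers what binds the tag and the beads, and background binding of footprints was not tested.

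RPL24A was the lowest in each strain. It had 174, 165 and 245 CPM in IP against 1048, 1461 and 1439 CPM in total of Upf1-FLAG, 257, 299 and 256 against 1178, 1302 and 1316 in DE572AA-FLAG, and 221, 216 and 246 against 1519, 1563 and 1395 in Upf1-FLAG_upf2del. No IP library came near a total library (log2 −2.89 ± 0.22, −2.40 ± 0.21 and −2.85 ± 0.22). RPL30, whose protein binds its own transcript and hinders its splicing, had 643, 476 and 605 CPM in IP against 2624, 1953 and 2064 CPM in total of Upf1-FLAG, again without overlap, with log2 values of −2.10 ± 0.14 there, −1.58 ± 0.13 in DE572AA-FLAG and −1.82 ± 0.13 in Upf1-FLAG_upf2del.

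The members varied widely around the median. RPL28 mRNA was lower by a typical amount (1362, 1165 and 1416 CPM in IP against 2909, 3214 and 3638 in total of Upf1-FLAG, log2 −1.45 ± 0.14), and RPL3 by less (−0.49 ± 0.12, −0.47 ± 0.12 and −0.61 ± 0.12). RPL5 had 1939, 1907 and 2038 CPM in IP against 2695, 1880 and 1726 in total of Upf1-FLAG and passed in no strain (−0.23 ± 0.15, −0.35 ± 0.15 and −0.20 ± 0.15). Only RPL18B and RPL41A were higher in IP in all 3 strains. RPL18B, the minor copy of its pair, had 1374, 686 and 719 CPM in IP against 291, 329 and 413 in total of Upf1-FLAG, 841, 762 and 611 against 355, 443 and 288 in DE572AA-FLAG, and 600, 772 and 840 against 390, 396 and 332 in Upf1-FLAG_upf2del (1.25 ± 0.25, 0.85 ± 0.25 and 0.84 ± 0.25). RPL41A, with a very short reading frame, had 127, 99.0 and 224 CPM in IP against 28.2, 59.3 and 48.6 in total of Upf1-FLAG (1.59 ± 0.40), and 1.71 ± 0.39 and 1.80 ± 0.39 in DE572AA-FLAG and Upf1-FLAG_upf2del.

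All 8 late-joining proteins and all 7 of the peptidyl transferase centre and tRNA sites were lower in IP in every strain, and 13, 9 and 10 of 14 exit tunnel members. The small subunit mRNAs did alike, with 48, 44 and 49 of 56 lower and medians of −1.21, −1.04 and −1.15. Glycolytic enzymes, also highly translated, did not: 4, 5 and 5 of 16 were lower and 6, 5 and 5 higher, with medians of 0.11, 0.06 and 0.20. Of the mitochondrial large subunit mRNAs 12, 8 and 11 were lower. Across the 76 members the IP against total values of Upf1-FLAG had a Pearson r of 0.95 with those of Upf1-FLAG_upf2del and 0.88 with those of DE572AA-FLAG, as a description over genes that share sequence with their copies. With the log2 transcript length r was −0.06 to −0.01 and with RNA FPKM in WT-C −0.17 to −0.14.

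**Figure D3:**
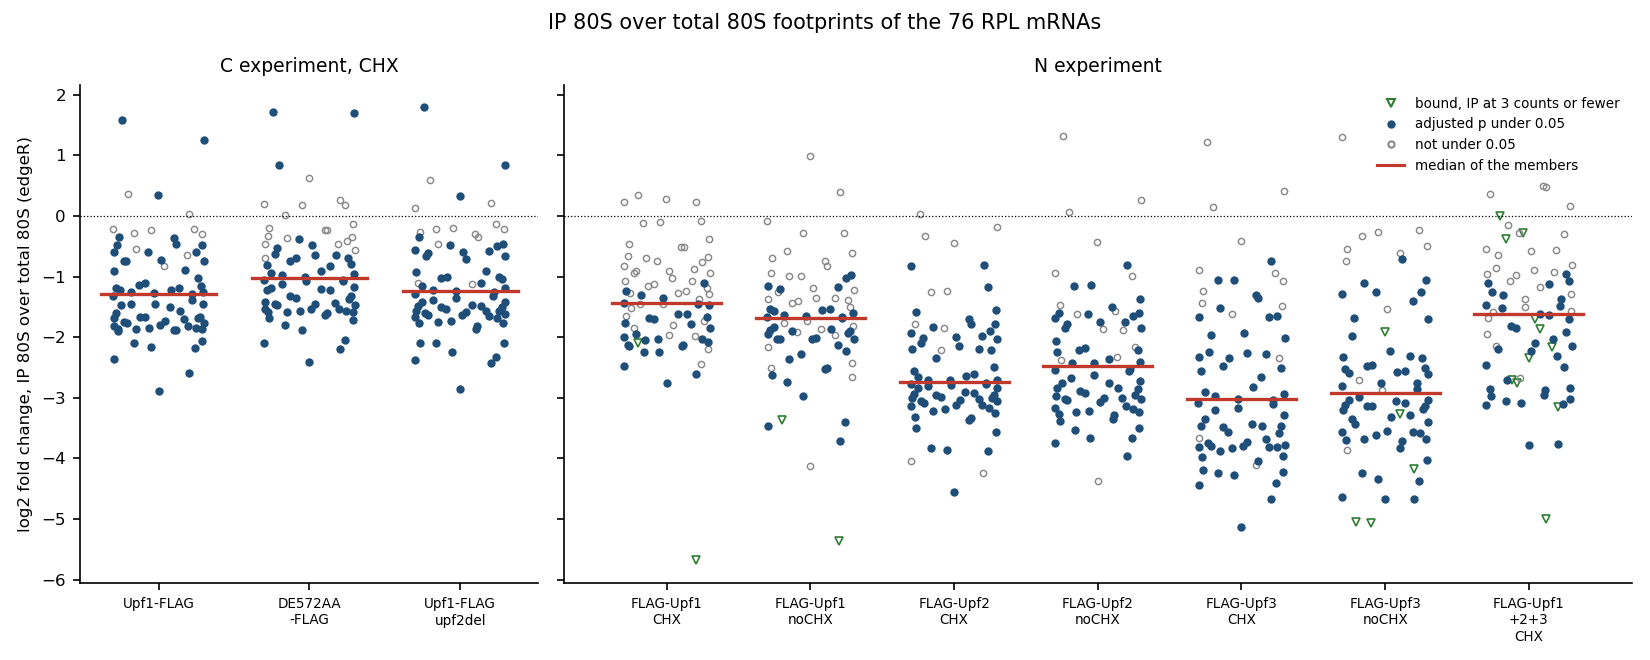
Log2 fold change (edgeR) of IP 80S over total 80S footprints for the 76 RPL mRNAs in each tagged strain of the C and N experiments. Filled blue points have an adjusted p under 0.05, open grey points do not, green triangles are upper bounds for members with at most 3 counts in every IP library, and red lines are medians with those bounds. Medians run from −1.28 to −1.03 in the C experiment and from −3.03 to −1.44 in the N experiment.

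The IP against total ratio differed between DE572AA-FLAG and Upf1-FLAG for 3 members (interaction test, all transcripts 0.139%), each the B copy of its pair and each higher in DE572AA-FLAG. RPL7B had 827, 921 and 1042 CPM in IP of DE572AA-FLAG against 106, 108 and 157 in IP of Upf1-FLAG and 112, 126 and 110 in that of Upf1-FLAG_upf2del. Its total footprints were 261, 166 and 334 CPM in DE572AA-FLAG, 185, 161 and 226 in Upf1-FLAG and 92.2, 179 and 163 in Upf1-FLAG_upf2del, and the IP libraries of DE572AA-FLAG stood alone. IP over total was 1.69 ± 0.24 in DE572AA-FLAG (edgeR adjusted p = 4.1e-05) against −0.75 ± 0.28 in Upf1-FLAG, a difference of 2.44 ± 0.37 (adjusted p = 0.012). The summed RPL7 pair was at −1.28 in DE572AA-FLAG. RPL7A, the major copy, had 1013, 916 and 799 CPM in IP of DE572AA-FLAG against 979, 998 and 1127 in IP of Upf1-FLAG, so its share of the RPL7 FPKM in IP was 49.6% in DE572AA-FLAG against 89.5% in Upf1-FLAG. RPL7B lies at 173152 to 174702 on chromosome XVI (R64, RefSeq gene span) and RPL7A at 364335 to 365996 on VII.

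RPL43B had 658, 781 and 713 CPM in IP of DE572AA-FLAG against 340, 240 and 312 in IP of Upf1-FLAG, with totals of 521, 624 and 533 against 428, 740 and 800, and a difference of 1.49 ± 0.28 (edgeR adjusted p = 0.041), which no longer passed in the fit paired by lysate (1.5). RPL27B had 305, 357 and 300 CPM in IP of DE572AA-FLAG against 171, 164 and 185 in IP of Upf1-FLAG, with totals of 349, 548 and 434 against 536, 629 and 558, and a difference of 1.22 ± 0.21 (adjusted p = 0.0045). Without IP replicate 2 of Upf1-FLAG none of the 3 passed, with RPL7B at 2.30, RPL43B at 1.34 and RPL27B at 1.17. The summed pairs gave 0.51, 0.90 and 0.73 with no call. Between Upf1-FLAG_upf2del and Upf1-FLAG 0 members differed by edgeR (all transcripts 0%), with 2 at an unadjusted p under 0.05 and 0 called by DESeq2.

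RPL28 pre-mRNA carried few footprints but was high in IP of DE572AA-FLAG, at 53.0, 49.9 and 77.8 CPM against 5.85, 5.87 and 8.71 CPM in total, without overlap (log2 2.90 ± 0.44, called). In Upf1-FLAG_upf2del it had 14.2, 18 and 3.43 CPM in IP against 1.91, 2.72 and 3.17 in total (2.04 ± 0.59, edgeR adjusted p = 0.0049), and in Upf1-FLAG 0, 1.71 and 0 CPM against 3.23, 1.89 and 0. WT-C total had no count of it. The difference between DE572AA-FLAG and Upf1-FLAG did not pass (edgeR adjusted p = 0.20). Of the 13 pre-mRNA rows of the family deep enough to test, RPL28 was the only row higher in IP in DE572AA-FLAG and in Upf1-FLAG_upf2del.

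**Figure D4:**
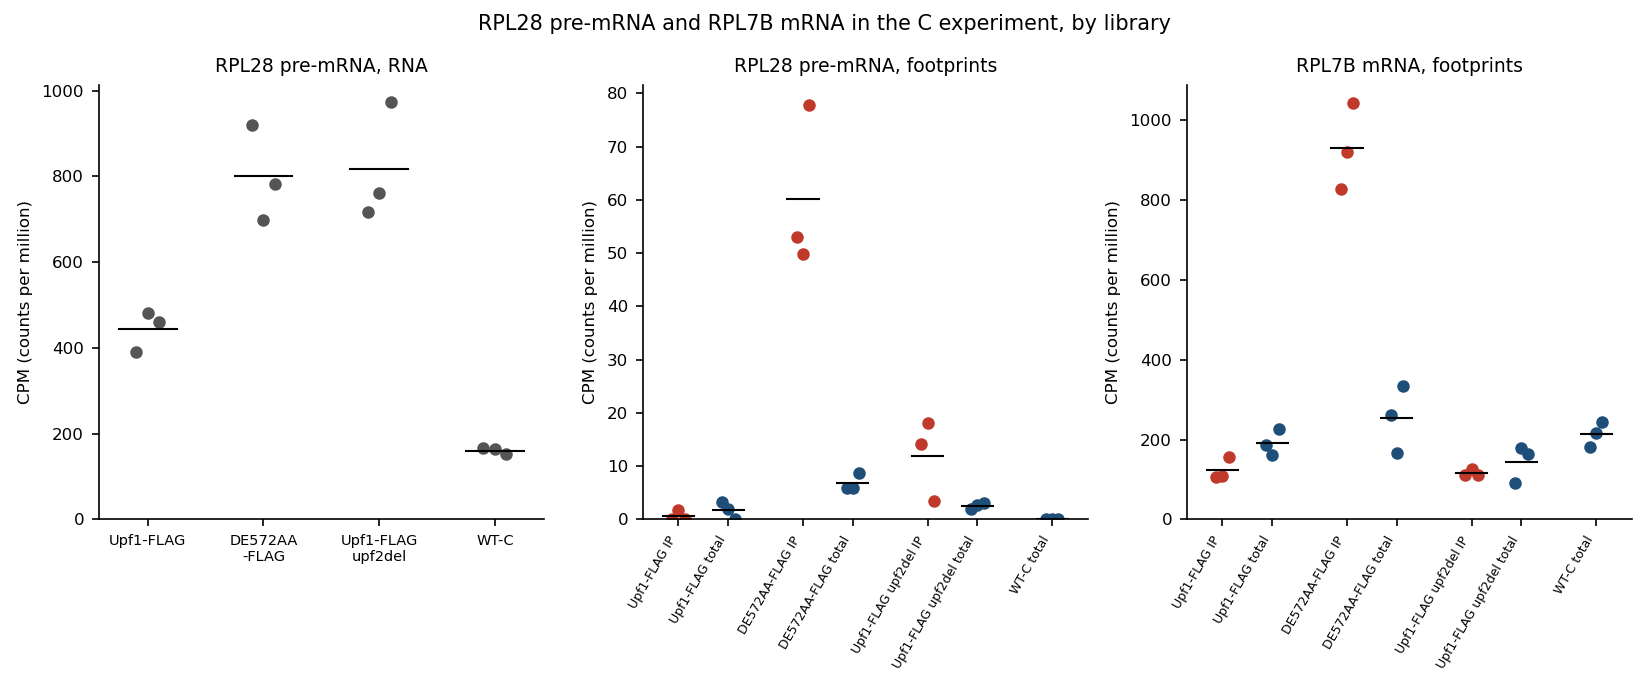
CPM by library in the C experiment for RPL28 pre-mRNA in RNA, RPL28 pre-mRNA in IP and total 80S footprints, and RPL7B mRNA in IP and total 80S footprints. Red points are IP, blue points total and grey points RNA libraries, and lines are means. The DE572AA-FLAG IP libraries stand alone in both footprint panels, at 49.9 to 77.8 CPM for RPL28 pre-mRNA and 827 to 1042 CPM for RPL7B mRNA.

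With the N-terminal tags the members were lower in IP in every strain and with either treatment, and none was called higher. Without CHX 39 members were lower in FLAG-Upf1 (all transcripts 2.62%), 61 in FLAG-Upf2 (all transcripts 7.23%) and 63 in FLAG-Upf3 (all transcripts 7.93%). With CHX 30 were lower in FLAG-Upf1 (all transcripts 1.7%), 65 in FLAG-Upf2 (all transcripts 7.75%), 62 in FLAG-Upf3 (all transcripts 9.24%) and 42 in FLAG-Upf1+Upf2+Upf3 (all transcripts 7.4%). The medians were −1.68, −2.48 and −2.92 without CHX and −1.44, −2.73, −3.03 and −1.62 with it, with members of at most 3 counts in every IP library at their bound. The medians of FLAG-Upf2 and FLAG-Upf3 lay below those of FLAG-Upf1, and this difference was not tested. The FLAG-Upf1 counts rested on single libraries: 17 and 25 noCHX without IP replicate 2 or total replicate 1, and 15, 8 and 16 with CHX without IP replicate 1, IP replicate 2 or total replicate 2. FLAG-Upf2 noCHX had 39 calls without IP replicate 2. In a fit of the compared groups only, FLAG-Upf1+Upf2+Upf3 had 2 calls in place of 42, and with the copies of a pair summed it had 66. FLAG-Upf1 had 70 noCHX and 51 with CHX with pairs summed, 17 noCHX in the 27-32 nt class alone and 46 with CHX by DESeq2.

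RPL32, an abundant single-copy member, had 806 and 583 CPM in IP against 2532 and 3217 CPM in total of FLAG-Upf1 with CHX, 345 and 316 against 2754 and 2698 in FLAG-Upf2, and 175 and 147 against 3496 and 2729 in FLAG-Upf3. IP was below total in each, with no overlap (log2 −2.03 ± 0.35, −3.05 ± 0.36 and −4.27 ± 0.38). RPL28 mRNA had 766 and 421 CPM in IP against 1860 and 2274 in total of FLAG-Upf1, 430 and 337 against 3004 and 2738 in FLAG-Upf2, and 181 and 221 against 2561 and 3034 in FLAG-Upf3 (−1.78 ± 0.32, −2.90 ± 0.33 and −3.79 ± 0.35). RPL3 was called lower in every strain and treatment, from −1.36 ± 0.21 in FLAG-Upf1+Upf2+Upf3 to −0.71 ± 0.20 in FLAG-Upf3 without CHX. Among members with over 3 counts in IP the largest fall was that of RPL37A in FLAG-Upf3 with CHX, with 6.37 and 21.0 CPM in IP against 467 and 596 CPM in total (−5.12 ± 0.60).

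Some members had almost no IP counts. Each member named here is a copy of a pair whose reads are split by estimate, so the bounds are for single copies as split. The share of a copy moved by over 10 points between groups for 30 of 33 pairs in N IP and 29 in N total. In the C experiment it did so for 4 and 3 pairs. RPL42B in FLAG-Upf1+Upf2+Upf3 had at most 2.87 counts in an IP library and 1329 CPM in total, at least 32.1-fold lower in IP when 3 counts are allowed per library. RPL42A, its other copy, had 6.13 and 10 counts in those IP libraries. RPL34A and RPL31B in FLAG-Upf3 noCHX were at least 33.6-fold and 33.1-fold lower. RPL41A, higher in IP in the C experiment, had at most 3 counts in the FLAG-Upf1 noCHX IP libraries and 630 CPM in total, at least 40.9-fold lower in IP, but passed the test in no N strain. Of the 56 RPS mRNAs 23, 44 and 42 were lower noCHX with tagged Upf1, Upf2 or Upf3 in that order, and 13, 43, 45 and 26 with CHX in those and FLAG-Upf1+Upf2+Upf3, whereas at most 2 of 33 mitochondrial large subunit mRNAs were. Over the 76 members FLAG-Upf2 and FLAG-Upf3 values with CHX had a Pearson r of 0.84, as a description.

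In IP of the C experiment the members held a larger share of 37-43 nt footprints than of 27-32 nt footprints: 9.65 ± 0.52% against 5.49 ± 0.59% in Upf1-FLAG and 8.87 ± 0.60% against 5.39 ± 0.63% in Upf1-FLAG_upf2del (SD, n = 3 each). Of 76 members 37 were higher in the long class in Upf1-FLAG (all transcripts 28.4%) and 9 lower (all transcripts 30.9%), and in Upf1-FLAG_upf2del 31 were higher (all transcripts 29.2%) and 9 lower (all transcripts 30.9%). The fitted medians were 0.48 and 0.39, and 0.93 and 0.86 from plain CPM, where 64 and 68 of 76 had a higher mean in the long class. The direction of members near 0 therefore rests on the scaling, and so does that of some members called lower. Of the 9 called lower in each strain, 8 in Upf1-FLAG and 6 in Upf1-FLAG_upf2del also had a lower mean CPM in the long class. The 2 strains shared 29 higher and 7 lower members. For DE572AA-FLAG this class was not analysed here.

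RPL13A had 3047, 4151 and 4390 CPM of long footprints against 624, 412 and 640 CPM of standard ones in Upf1-FLAG, and 2731, 2902 and 2712 against 458, 462 and 574 in Upf1-FLAG_upf2del. The classes did not overlap (log2 2.36 ± 0.15 and 2.01 ± 0.15). RPL35B, the other copy of the RPL35 pair, had 2865, 1983 and 3111 against 248, 71.7 and 250 CPM in Upf1-FLAG (3.46 ± 0.63) and 1160, 1908 and 2586 against 53.6, 110 and 217 in Upf1-FLAG_upf2del (3.47 ± 0.63). Its reads are split with RPL35A by estimate, so these values are for the copy as split. RPL35A held 65.6 ± 13.7% of the RPL35 FPKM in the standard class of Upf1-FLAG IP. RPL28 had 6169, 4330 and 4421 against 1362, 1165 and 1416 CPM in Upf1-FLAG and 4503, 5170 and 4754 against 1285, 1333 and 1643 in Upf1-FLAG_upf2del (1.48 ± 0.15 and 1.28 ± 0.15), and single-copy RPL25 and RPL38 were higher by 1.26 ± 0.14 and 1.83 ± 0.20 in Upf1-FLAG.

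RPL14A and RPL18B were among the members lower in the long class in both strains (−1.42 ± 0.18 and −1.12 ± 0.32 in Upf1-FLAG). RPL3 was called lower in both (−0.46 ± 0.11 and −0.30 ± 0.11) although its CPM overlapped between classes, at 3489, 3769 and 3549 against 3718, 3469 and 3741 in Upf1-FLAG. Of members with a pre-mRNA row, 33 and 27 of 56 were higher in Upf1-FLAG and Upf1-FLAG_upf2del and 5 and 6 lower. Of those without, 4 and 4 of 20 were higher and 4 and 3 lower. Exit tunnel members were higher in 9 and 7 of 14 cases and lower in 1 and 1. Among other genes, 30 and 32 of 56 RPS mRNAs were higher and 7 and 6 lower, while 14 and 15 of 16 glycolytic enzymes were lower.

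**Figure D5:**
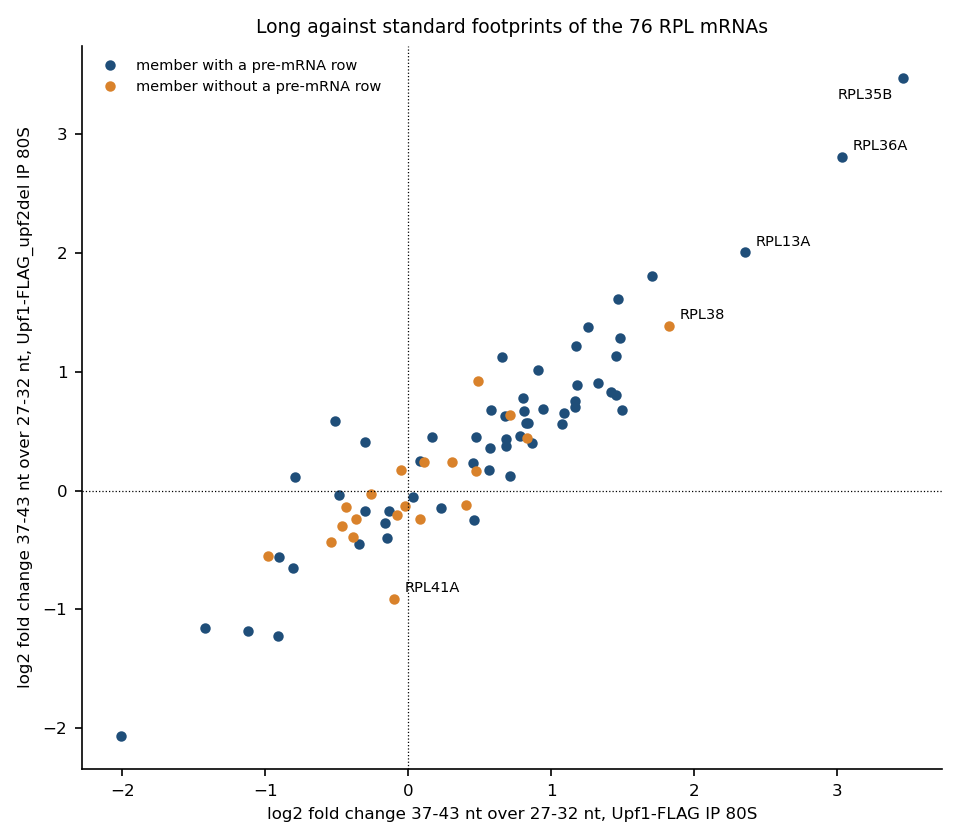
Log2 fold change (edgeR) of 37-43 nt over 27-32 nt IP 80S footprints for the 76 RPL mRNAs, Upf1-FLAG on the x axis and Upf1-FLAG_upf2del on the y axis. Blue points are members with a pre-mRNA row and orange points those without. The points lie along the diagonal, with RPL35B, whose reads are split with RPL35A by estimate, the highest at 3.46 and 3.47.

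Few members passed in the long class of the N experiment in IP. There the members held 7.24 ± 0.67% of long against 3.89 ± 0.44% of standard footprints in FLAG-Upf1 and 5.99 ± 0.28% against 3.19 ± 0.07% in FLAG-Upf1+Upf2+Upf3 (n = 2 each, ± SD). In total they held 4.21 ± 0.19% against 9.01 ± 0.42% and 2.73 ± 0.12% against 8.64 ± 0.08%, in libraries of 10446 to 21461 long counts. Of 75 members tested in IP, 1 passed in FLAG-Upf1 (RPL19A higher, all transcripts 0.566% in either direction) and 6 in FLAG-Upf1+Upf2+Upf3 (4 higher and 2 lower, 5.94%). In total the members' fitted medians were −1.47 in FLAG-Upf1 and −2.73 in FLAG-Upf1+Upf2+Upf3, against −0.87 and −4.58 for all transcripts. From plain CPM the members' medians were −1.06 and −1.26. The members' median was only 1 to 9.5 counts in these long total libraries. There 3 and 19 members were lower (all transcripts 0.919% and 4.7% in either direction). In the fits paired by library these counts were 0, 2, 0 and 12.

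Short footprints (20-23 nt) were tested against 27-32 nt without CHX. The 27-32 nt class without CHX was small, at 17924 to 716822 counts in IP libraries and 24713 to 351898 in total. There the members' median was 1 to 87.4 counts in IP and 15.9 to 352 in total, so few calls were possible in the smallest libraries. In IP 1 of 76 members passed in FLAG-Upf1 (RPL20B higher, all transcripts 0.19%), and by edgeR 0 in FLAG-Upf2 (0.244%) and 0 in FLAG-Upf3 (0.136%), where 9 and 13 had an unadjusted p under 0.05. In total footprints 1 was higher in FLAG-Upf1 (RPL35B, 0.136%), 1 in FLAG-Upf2 (RPL38, 0.0814%) and 1 in FLAG-Upf3 (RPL38, 0.109%), and 0 passed in WT-N (0.0271%, with 4 at an unadjusted p under 0.05). DESeq2 was not run on these classes. The paired fits gave 7, 0 and 3 members in IP and 6, 3, 1 and 0 in total in the same order.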

How the data were processed

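RNA-seq and ribosome footprint tables for 83 libraries held, per transcript, expected counts and FPKM that the authors had estimated before deposit. The expected counts are deposited as RSEM estimates that need not be whole, and the FPKM values are the authors' expected counts scaled to transcript length and library size. The submitters' processing notes name cutadapt, Bowtie and RSEM and the sacCer3 build. Reads of gene copies, and of the mRNA and pre-mRNA rows of a gene, are split by estimate, and ribosomal RNA was removed with different kits in the N and C experiments, per the labels' protocols. All 250 sample columns were mapped to labels. RefSeq names (R64) matched the loci.

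Counts were rounded and tested with edgeR 4.0.16 (quasi-likelihood, TMM scaling, a minimum count of 10 in filterByExpr, robust), and p-values were adjusted by Benjamini-Hochberg over all transcripts of a comparison. Genes were called at an adjusted p under 0.05. Counts of members called in several comparisons at once are given without the matching share of all transcripts. SE is the log2 fold change divided by the root of F. CPM is the expected count scaled to the column total, without TMM. Each kind of library of an experiment shared 1 fit over its groups, with IP and total in 1 fit, and footprint or strain differences were interaction terms. Bounds allow 3 counts per library. DESeq2 1.42.0, RLE scaling, no filter, fits of the compared groups only, the 27-32 nt class alone, TMM without ribosomal protein mRNAs, copies of a pair summed, a replicate block and leaving out each library were alternatives. The fits were tested on simulated data.

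IP, total and RNA of a lysate share a lysate code, and CHX and noCHX samples a transformant code, in the labels, so those are pairs. The correlation of deviations was −0.04 to 0.09 for IP and total of a lysate and −0.27 to 0.80 for CHX and noCHX of a transformant. For RNA and total of a lysate it was −0.06 to 0.30. Between strains a replicate number is only a number. RNA libraries of the same number in different strains had correlations of −0.48 to 0.52 in the C experiment and −0.62 to 0.27 in the N experiment. In 82 pairs of replicates none held identical values, and the lowest chi-square per transcript was 1.96.

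The members, gene lists and tests were chosen with earlier results of these data known. Named genes were, per comparison, the 8 largest called changes each way whose libraries did not overlap, of which the text gives a part, plus a fixed list (RPL28, RPL30, both RPL22, RPL3, RPL5, RPL10, both RPL11, RPL25, RPL39, both RPL40 and both RPL41), the highest and lowest levels, and the most and least unequal pairs. Sequences were not used here. Values of 1 member are not reported here.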

Additional observations from a re-analysis of the deposited data

Results flagged for a closer look

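The IP against total ratio of 3 members differed between DE572AA-FLAG and Upf1-FLAG by a test of the difference itself. The log2 difference was 2.44 for RPL7B, 1.49 for RPL43B and 1.22 for RPL27B, all higher in DE572AA-FLAG (edgeR interaction test, adjusted p = 0.012, 0.041 and 0.0045). Each is the B copy of a pair whose reads are split by estimate. None of the 3 passed with the copies of the pair summed or without IP replicate 2 of Upf1-FLAG. The change of footprints relative to RNA differed from 0 for RPL20A in Upf1-FLAG against WT-C (log2 −0.59, edgeR adjusted p = 0.048) and for RPL26A in DE572AA-FLAG against WT-C (log2 0.61, adjusted p = 0.040). Both calls ended without most single libraries of their groups, and neither held with the copies of the pair summed.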

How the results depend on the processing

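Of the values for single members, 2561 kept their direction and their side of the threshold under the alternatives, 352 kept their direction and no longer passed, and 5 reversed. All 5 reversed when the copies of a pair were summed, which gave −0.38 for RPL15B with CHX in FLAG-Upf1, −0.55 for RPL15B with CHX in FLAG-Upf3, 0.057 for RPL26B in total footprints of FLAG-Upf1+Upf2+Upf3, −1.28 for RPL7B in IP against total of DE572AA-FLAG and −0.21 for RPL12A in long IP footprints of FLAG-Upf1+Upf2+Upf3. Except where a value shows it, the cause of a change was not tested.

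Counts of called RNA members moved as follows. For DE572AA-FLAG against Upf1-FLAG, 41 became 14 in a fit of the compared groups only. For Upf1-FLAG_upf2del against Upf1-FLAG, 13 became 8 with TMM without ribosomal protein mRNAs, 0 with the compared groups only, 27 with DESeq2 and 8 with the replicate block. Without CHX, FLAG-Upf2 against WT-N had 3, and 0 with the compared groups only, 5 with DESeq2 and 0 with pairs summed, while FLAG-Upf3 had 1, and 0, 2 and 0 under the same alternatives and 0 with the replicate block. With CHX, FLAG-Upf1 had 2, and 0, 11 and 0 under those alternatives, and FLAG-Upf3 had 0, and 3 with DESeq2. FLAG-Upf1+Upf2+Upf3 had 7, and 11 with RLE, 1 with the compared groups only, 36 with DESeq2, 0 with pairs summed and 4 with the replicate block. For CHX against noCHX in FLAG-Upf1, 63 became 37 with the compared groups only.

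In total footprints of the C experiment, Upf1-FLAG against WT-C had 22, and 5 with the compared groups only, and Upf1-FLAG_upf2del against Upf1-FLAG had 1, and 5 with the compared groups only and 0 with pairs summed. In the N experiment without CHX, FLAG-Upf1 had 0, and 2 with RLE, 4 with no filter and 5 with DESeq2, FLAG-Upf2 had 0, and 3 with no filter and 2 in the 27-32 nt class alone, and FLAG-Upf3 had 0, and 1 with no filter. With CHX, FLAG-Upf1 had 0, and 1 with RLE, 2 with no filter, 4 with DESeq2 and 2 with pairs summed, FLAG-Upf2 had 0, and 1 with no filter, and FLAG-Upf1+Upf2+Upf3 had 3, and 1 with RLE, 5 with no filter and 0 with the compared groups only.

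In IP against total, the difference of DE572AA-FLAG and Upf1-FLAG had 3, and 0 with pairs summed. FLAG-Upf1 without CHX had 39, and 70 with pairs summed and 17 in the 27-32 nt class alone. FLAG-Upf1 with CHX had 30, and 46 with DESeq2 and 51 with pairs summed. FLAG-Upf1+Upf2+Upf3 had 42, and 2 with the compared groups only and 66 with pairs summed. In translational efficiency, Upf1-FLAG had 1, and 7 with DESeq2, 2 with pairs summed and 0 with the replicate block, DE572AA-FLAG had 1, and 4 with DESeq2 and 0 with pairs summed, and Upf1-FLAG_upf2del had 0, and 2 with RLE, 7 with DESeq2 and 1 with the replicate block. Its difference from Upf1-FLAG had 0, and 1 with DESeq2.

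Among long footprints of the N experiment, IP of FLAG-Upf1 had 1, and 2 with pairs summed and 0 with the replicate block (the fit paired by library), and IP of FLAG-Upf1+Upf2+Upf3 had 6, and 2 with the replicate block. Total of FLAG-Upf1 had 3, and 0 with RLE, 5 with TMM without ribosomal protein mRNAs, 10 with pairs summed and 0 with the replicate block. Total of FLAG-Upf1+Upf2+Upf3 had 19, and 7 with RLE, 32 with pairs summed and 12 with the replicate block. Among short footprints, IP of FLAG-Upf1 had 1, and 3 with RLE, 3 with TMM without ribosomal protein mRNAs, 4 with pairs summed and 7 with the replicate block. IP of FLAG-Upf2 had 0, and 1 with RLE, and IP of FLAG-Upf3 had 0, and 1 with RLE and 3 with the replicate block. Total of FLAG-Upf1 had 1, and 0 with pairs summed and 6 with the replicate block, and total of FLAG-Upf2 had 1, and 3 with the replicate block.

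Leaving out 1 library at a time gave RNA counts of 14 to 39 for Upf1-FLAG, 19 to 56 for DE572AA-FLAG against Upf1-FLAG and 2 to 46 for Upf1-FLAG_upf2del against Upf1-FLAG. In N RNA it gave 19 to 33, 0 to 2 and 0 to 1 for FLAG-Upf1, -Upf2 and -Upf3 without CHX, 0 to 17 and 0 to 1 for FLAG-Upf1 and FLAG-Upf3 with CHX, 0 to 9 for FLAG-Upf1+Upf2+Upf3 and 40 to 68 for CHX in FLAG-Upf1. In C total it gave 12 to 19, 18 to 34 and 20 to 36 for Upf1-FLAG, DE572AA-FLAG and Upf1-FLAG_upf2del, with 0 to 1 and 0 to 3 for DE572AA-FLAG and Upf1-FLAG_upf2del against Upf1-FLAG. In N total it gave 0 to 9, 0 to 9 and 0 to 11 without CHX, 0 to 2 and 0 to 1 for FLAG-Upf1 and FLAG-Upf2 with CHX, and 1 to 6 for FLAG-Upf1+Upf2+Upf3. In IP against total it gave 0 to 3 for the DE572AA-FLAG difference, 17 to 38 and 39 to 55 for FLAG-Upf1 and FLAG-Upf2 without CHX and 8 to 20 for FLAG-Upf1 with CHX. In translational efficiency it gave 0 to 2, 0 to 3 and 0 to 1 for Upf1-FLAG, DE572AA-FLAG and Upf1-FLAG_upf2del, and 0 to 1 for each difference from Upf1-FLAG. In long N footprints it gave 0 for IP of FLAG-Upf1, 0 to 2 for its total and 8 to 21 for total of FLAG-Upf1+Upf2+Upf3. In short footprints it gave 0 to 5 and 0 to 1 for IP of FLAG-Upf1 and FLAG-Upf3, 2 for total of FLAG-Upf1, 0 for total of FLAG-Upf2 and FLAG-Upf3, and 0 to 7 for total of WT-N.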
